A study of Mus musculus with 12 samples.

Results

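RNA of 50 genes that act in G2 phase and mitosis was followed in 4599 cells, a murine melanoma line, after growth on a collagen matrix. The genes were chosen by function, as the rows whose gene symbol is one of 50 listed names, with earlier results of these data known. All 50 are among the 56748 gene rows of the expression table, and all 50 passed the filter of a mean of at least 0.5 FPKM (fragments per kilobase of gene length, scaled to library size) that kept 12661 genes for testing. There were 4 groups of 3 libraries each. Met cells came from lung metastasis of the melanoma, and DIF, PIF and TB cells came from 3 differently named parts of an orthotopic tumour, meaning a tumour grown in the organ of origin. The labels do not spell out DIF, PIF and TB. All 4 groups were plated on fibrillar collagen from bovine dermis (1.7 mg/ml) and kept for 24 h in medium with 10% serum and 24 h in medium with 1% serum before lysis, so the values describe cultured cells and not the tumours themselves. The series title places the comparison in the setting of matrix topography and a memory of it in the cytoskeleton and in transcription. The labels name no genetic change or drug in any group. Nothing says how the cells were isolated, from which host mice, or if replicates are separate animals or cultures, so p-values measure a spread that may be technical.

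A dividing cell makes its mitotic proteins in a wave. Transcription of these genes is low in resting and G1 cells, where the DREAM repressor complex holds it down, and rises through late S and G2 phase, when the MuvB core binds B-Myb and then FoxM1 in place of the repressor. MuvB reads a short promoter element called the cell cycle genes homology region, or CHR, and the factor NF-Y reads CCAAT boxes close to it. The proteins made in this wave start mitosis (cyclin-dependent kinase 1 with cyclins A2, B1 and B2), build the spindle (kinesins, Tpx2, Prc1), attach chromosomes to it (the Ndc80 complex and centromere proteins), hold anaphase until every chromosome is attached (Bub1b, Ttk, Mad2l1) and then end mitosis (Cdc20, Ube2c, separase). In a tumour cell population the level of these transcripts follows how many cells are cycling and how much of each transcript a cycling cell holds. In bulk RNA, fewer cells in G2 and mitosis and less of these RNAs per such cell cannot be told apart.

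The promoters show what many of these genes share in sequence, a feature that the choice of members did not use. RefSeq promoter windows on GRCm38.p6, from 250 bases before to 50 bases after the gene start, were matched by symbol for 41 of the 50 members, in 44 windows. No entry was found for Aurkb, Ccna2, Cdc25c, Cdca2, Foxm1, Incenp, Kif20a, Spc24 and Tpx2. CHR letters were searched as TTTGAA or TTCGAA on both strands (TTCAAA is the first on the other strand), and CCAAT boxes as CCAAT or, on the other strand, ATTGG. In 1 member window a CHR match and a CCAAT match overlapped. CHR letters stood in the window of 32 of the 41 members, 78.0%, against 21.7% of all 27025 genes in the promoter table. They lay within 50 bases of the gene start in 70.7% of members, against 6.12% of all genes. A CCAAT box was present for 75.6% of members and 41.1% of all genes, and 2 or more for 51.2% of members and 13.3% of all genes. CHR and CCAAT letters occurred together in 68.3% of members and 8.61% of all genes. The E2F letters TTTCCCGC or TTTGGCGC, searched on both strands, were in the window of 1 of 41 members, 2.44%, in 1.80% of all genes and in 3.62% of the 9025 genes of the promoter table that were tested here. Among those 9025 genes, CHR letters stood in 16.3% and a CCAAT box in 43.6%. Of 130 genes from 7 other lists of mitotic genes and regulators, described further down, 43.1% held CHR letters, 57.7% a CCAAT box and 13.8% the E2F letters. Of 32 DNA replication genes with a window, the class switched on earlier in the cycle, 34.4% carried the E2F letters and 18.8% the CHR letters. A match is a description of letters and not evidence of binding.

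The windows of the 6 members with the smallest p over the 4 groups among those with CHR letters, chosen as stated under the processing, are shown as examples. Having CHR letters was a condition of this choice. Ccnb1, with a window but no CHR letters, had a smaller p in limma's F test (0.000259) than Kif11 (0.000365) and Ckap2 (0.000366). Each printed window runs 5′ to 3′ on the strand of its gene, in lower case, with the CHR and CCAAT letters in capitals. The windows are chr9:61946750-61947049 on the minus strand for Kif23, chr2:118597961-118598260 on the plus strand for Bub1b, chr4:118437294-118437593 on the minus strand for Cdc20, chr9:83834439-83834738 on the plus strand for Ttk, chr19:37376132-37376431 on the plus strand for Kif11 and chr8:22185770-22186069 on the minus strand for Ckap2.
Kif23: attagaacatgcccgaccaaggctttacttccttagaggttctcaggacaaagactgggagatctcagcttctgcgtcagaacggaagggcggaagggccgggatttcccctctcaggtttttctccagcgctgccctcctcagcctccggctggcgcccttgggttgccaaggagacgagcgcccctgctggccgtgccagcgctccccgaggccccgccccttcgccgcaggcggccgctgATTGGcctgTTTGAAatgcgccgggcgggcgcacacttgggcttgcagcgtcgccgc
Bub1b: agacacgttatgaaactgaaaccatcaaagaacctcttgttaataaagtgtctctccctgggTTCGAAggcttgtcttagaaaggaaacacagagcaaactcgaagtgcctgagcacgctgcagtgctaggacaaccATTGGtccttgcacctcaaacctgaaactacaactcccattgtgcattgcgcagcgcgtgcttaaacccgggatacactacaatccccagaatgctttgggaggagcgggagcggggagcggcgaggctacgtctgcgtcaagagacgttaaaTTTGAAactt
Cdc20: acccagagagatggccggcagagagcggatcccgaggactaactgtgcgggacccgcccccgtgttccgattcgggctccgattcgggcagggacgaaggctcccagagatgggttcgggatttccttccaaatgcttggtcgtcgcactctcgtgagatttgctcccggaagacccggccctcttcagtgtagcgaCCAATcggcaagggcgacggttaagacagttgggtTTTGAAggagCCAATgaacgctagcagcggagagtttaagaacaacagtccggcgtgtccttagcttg
Ttk: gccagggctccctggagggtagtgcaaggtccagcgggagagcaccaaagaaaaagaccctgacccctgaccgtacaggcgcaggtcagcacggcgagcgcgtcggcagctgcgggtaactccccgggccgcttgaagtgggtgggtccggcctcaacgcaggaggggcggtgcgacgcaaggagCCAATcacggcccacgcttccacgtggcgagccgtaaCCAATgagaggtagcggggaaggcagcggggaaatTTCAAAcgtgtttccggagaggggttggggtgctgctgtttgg
Kif11: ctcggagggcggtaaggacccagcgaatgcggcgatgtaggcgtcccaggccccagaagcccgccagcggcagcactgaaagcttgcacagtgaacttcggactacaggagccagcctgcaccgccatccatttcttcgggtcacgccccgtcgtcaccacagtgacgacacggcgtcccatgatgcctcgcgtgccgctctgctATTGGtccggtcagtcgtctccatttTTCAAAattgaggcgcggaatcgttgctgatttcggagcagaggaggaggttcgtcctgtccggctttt
Ckap2: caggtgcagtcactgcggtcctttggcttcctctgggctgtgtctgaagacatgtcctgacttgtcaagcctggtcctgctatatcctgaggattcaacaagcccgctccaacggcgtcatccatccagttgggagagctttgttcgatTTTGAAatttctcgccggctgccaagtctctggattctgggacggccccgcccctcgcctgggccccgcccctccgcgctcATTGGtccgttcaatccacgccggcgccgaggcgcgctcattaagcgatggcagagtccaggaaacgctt
Positions are counted from 1 at the gene start, with negative numbers before it. In Cdc20 the CHR begins at -18, between a pair of CCAAT boxes that begin at -53 and -8. In Kif11 the CHR begins at -19, downstream of its ATTGG. In Kif23 and Ttk the CHR begins at 3 and 8, with CCAAT letters upstream of it in both. Bub1b has a pair of matches, at 41 and at -188. In Ckap2 the CHR lies farther out, at -101, and is upstream of the ATTGG. Of the 32 members with CHR letters, 24 passed the test over the 4 groups described next, and of the 9 members with a window but no CHR letters 5 did.

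The 12 libraries held 15.5 to 18.4 M reads rebuilt from the deposited values, 17.6 ± 0.872 M on average (SD, n = 12), and PIF replicate 1 and DIF replicate 1 held the fewest. A member was covered by 345 to 14611 reads per library. The melanoma label was checked against 9 markers of the melanocyte lineage. Sox10, a lineage factor, averaged 229 FPKM and Mitf, the master regulator of pigment cells, 8.69 FPKM, while Tyrp1 was listed at 0 in all 12 libraries. Mitf differed by group, with 3.73 to 5.21 FPKM in Met cells, 3.40 to 5.57 in DIF cells, 8.62 to 13.4 in PIF cells and 14.5 to 15.7 in TB cells. Mlana, Dct and Tyr, genes of the pigment organelle, were near 0, with 0.397, 0.139 and 0.0325 FPKM as their highest values, and 5 of the 9 passed the filter. The summed level of these 9 markers was 302 to 355 FPKM in Met cells, 291 to 341 in DIF cells, 476 to 530 in PIF cells and 400 to 447 in TB cells. Of these, Gpnmb, a membrane glycoprotein of pigment cells and macrophages, had 6.45 to 6.68 FPKM in Met cells, 6.77 to 8.79 in DIF cells, 142 to 190 in PIF cells and 90.1 to 96.97 in TB cells. S100b, a calcium-binding protein, had 82.6 to 107 FPKM in Met cells, 70.6 to 86.3 in DIF cells, 57.9 to 73.5 in PIF cells and 72.2 to 88.5 in TB cells. Of 8 fibroblast markers 1 passed the filter, Col3a1, and their sum was 7.87 to 9.96 FPKM in Met cells, 10.9 to 15.99 in DIF cells, 5.58 to 8.98 in PIF cells and 10.7 to 11.4 in TB cells. Summed markers of leukocytes reached 0.726 FPKM at most, with Itgam, Cd3e and Adgre1 at 0 throughout, those of endothelium 0.360 FPKM and those of lung epithelium 0.231 FPKM. The 3 keratinocyte markers summed to 2.02 to 3.31 FPKM, with Krt5 at 0 throughout. The part of other cell types in the differences below was not tested.

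The mitotic genes were high in Met and TB cells and lower in DIF and PIF cells. Their summed level was 1917 ± 31.4 FPKM in Met cells, 1621 ± 89.3 in DIF cells, 1584 ± 115 in PIF cells and 1858 ± 33.3 in TB cells (SD, n = 3 each). Met cells had the highest group mean for 39 members and TB cells for 11, while PIF cells had the lowest for 25, DIF cells for 23 and TB cells for 2. Over all tested genes, the Met mean was the highest for 22.7% and the TB mean for 23.7%, and the PIF mean was the lowest for 30.1% and the DIF mean for 22.2%. The Met and TB means both lay above the DIF and PIF means for 45 of the 50 members, an arrangement found for 14.2% of all tested genes. The 5 others were Bub3, Cdca2, Espl1, Foxm1 and Spc24. Differences among the 4 groups passed limma's F test, at an adjusted p under 0.05 over all 12661 genes, for 34 of 50 members, against 24.8% of all tested genes. Without Met replicate 2 the number was 22. All differences were modest: no member reached a 2-fold difference in any of the 6 pairs of groups, and the ratio of the highest to the lowest library ranged from 1.18 for Bub3 to 1.83 for Cenpf.

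**Figure D1:**
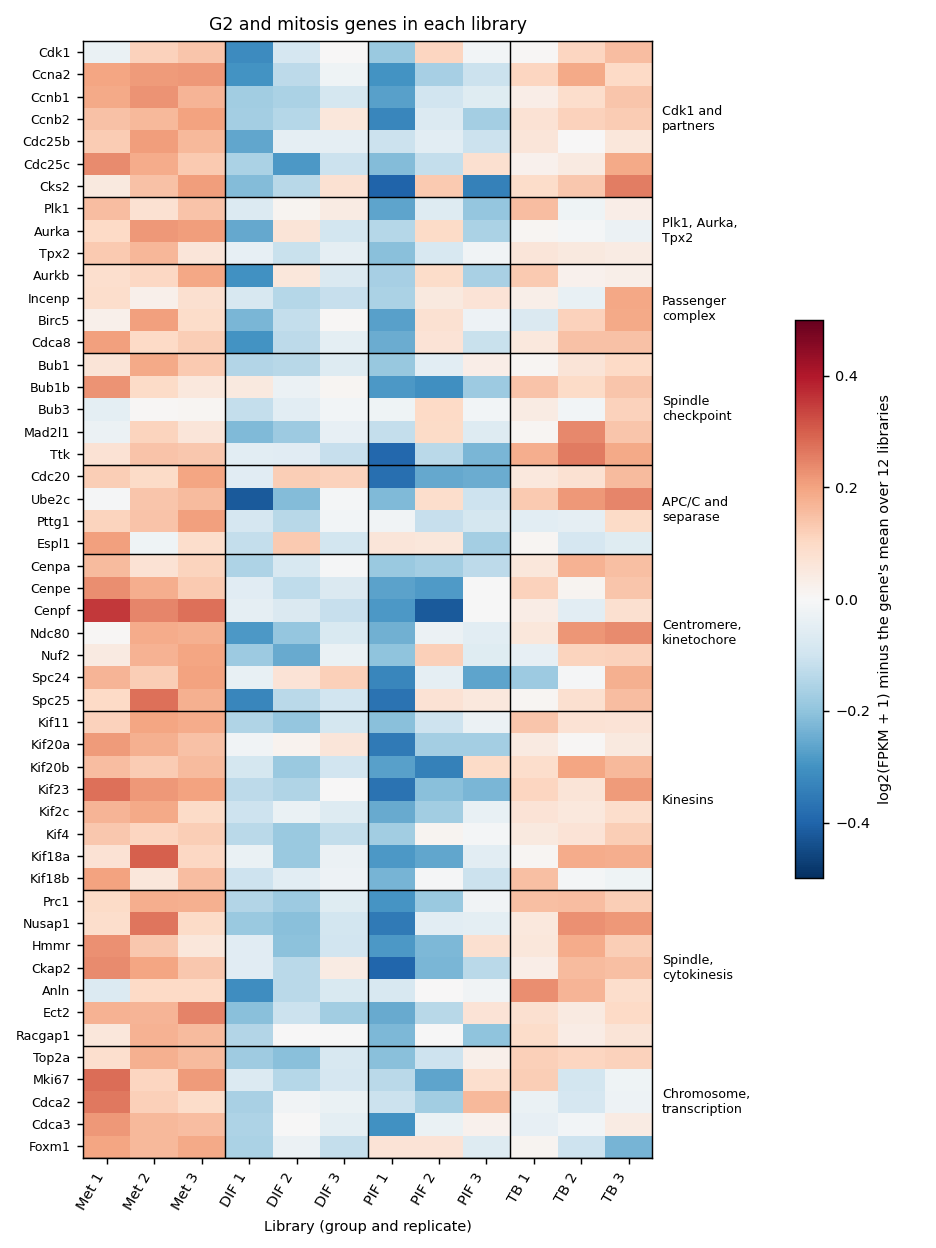
Difference of each of the 50 members (rows, grouped by role) from its own mean over the 12 libraries, on the log2(FPKM + 1) scale, in every library (columns, Met, DIF, PIF and TB from left to right). Met and TB libraries are mostly above and DIF and PIF libraries mostly below the mean, and PIF replicate 1 holds the lowest value in 26 of the 50 rows.

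Individual libraries followed their groups, with PIF replicate 1 farther down than its partners and DIF replicate 3 nearer to TB cells than its partners. The median over the 50 members of the log2 difference from the TB mean was 0.06, 0.08 and 0.06 in the Met libraries, -0.24, -0.21 and -0.13 in the DIF libraries, -0.32, -0.15 and -0.15 in the PIF libraries and -0.03, -0.00 and 0.02 in the TB libraries. PIF replicate 1 was the lowest of its group for 39 of 50 members and the lowest of all 12 libraries for 26. DIF replicate 1 was the lowest of its group for 30 members and of all 12 for 11. DIF replicate 3 was the highest of its group for 31 members. PIF replicate 1 and DIF replicate 1 held the fewest reads, while DIF replicate 2, with a median of -0.21, held 18.2 M. The part of depth in the position of the libraries was not tested.

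**Figure D2:**
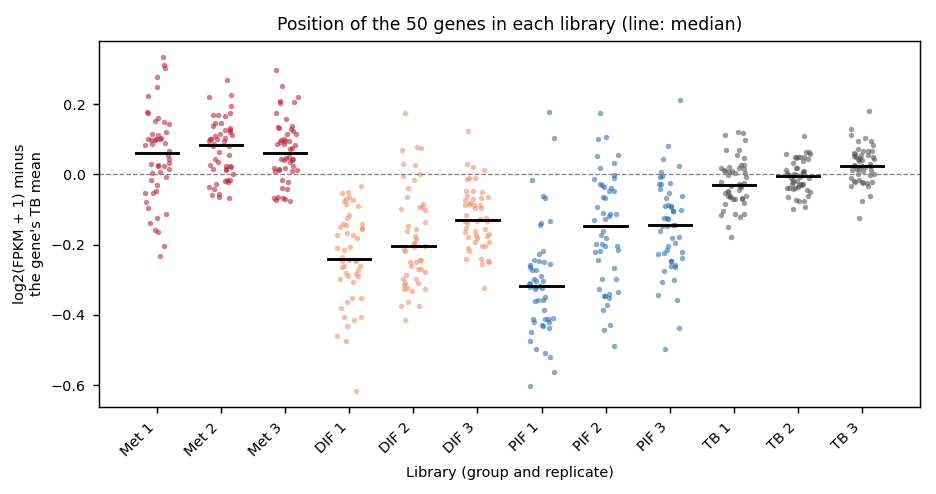
Each point is 1 of the 50 members in 1 library, as the difference of log2(FPKM + 1) from the mean of that gene in TB cells, with libraries on the horizontal axis and a line at the median. The medians of the 6 DIF and PIF libraries lie between -0.32 and -0.13, and those of the 6 Met and TB libraries between -0.03 and 0.08.

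The 6 pairs of groups were then compared, with limma on log2(FPKM + 1) and calls at a Benjamini-Hochberg adjusted p under 0.05 over all genes tested. The pairs share libraries, so their results are not independent and are given side by side. In PIF cells 20 of 50 members fell below TB cells and 0 rose, where 6.58% of all tested genes fell and 7.52% rose. At an unadjusted p under 0.05 the numbers were 30 and 0, and limma's voom on the rebuilt reads gave 23 and 0. Of all 12661 tested genes, 1718 were lower and 1882 higher without adjustment. The 20 were the cyclins Ccna2, Ccnb1 and Ccnb2, the kinase Plk1, the checkpoint kinases Ttk and Bub1b, the anaphase activator Cdc20, the centromere and kinetochore genes Cenpa, Cenpe and Ndc80, the kinesins Kif23, Kif20a, Kif2c, Kif11, Kif18a and Kif20b, the spindle proteins Ckap2, Prc1 and Nusap1, and the DNA topoisomerase Top2a. For 25 members all 3 PIF values lay below all 3 TB values, against 15.1% of all genes. The median log2 difference was -0.21 over the members and 0.00 over all tested genes. The 20 became 8 without TB replicate 2, 9 when TB replicate 3 was left out and 8 without PIF replicate 1.

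In DIF cells 12 members fell below TB cells and 0 rose, where 4.36% of all tested genes fell and 4.26% rose. At an unadjusted p under 0.05 the numbers were 30 and 0, and voom gave 16 and 0. Of all 12661 tested genes, 1465 were lower and 1443 higher without adjustment. The 12 were Ccna2, Ccnb1, Ttk, Ube2c, Cenpa, Ndc80, Kif11, Kif4, Anln, Prc1, Nusap1 and Top2a. For 33 members all 3 DIF values were under all 3 TB values, against 15.1% of all genes. The median log2 difference was -0.19, near that of PIF cells. The calls depended on single libraries: leaving out TB replicate 1, 2 or 3 left 7, 0 and 1 calls in that order, and leaving out DIF replicate 1 or 2 left 2 and 1.

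Met cells had few calls against TB cells. Foxm1, the transcription factor that drives late mitotic genes, was the 1 member that rose in Met cells, and 0 fell, where 5.32% of all tested genes rose and 4.63% fell. At an unadjusted p under 0.05, 7 members were higher and 0 lower, and voom called 2 higher and 0 lower. Of all 12661 tested genes, 1593 were higher and 1447 lower without adjustment, so the 7 are near the share of all genes. The Foxm1 call was lost without Met replicate 1, Met replicate 3, TB replicate 2 or TB replicate 3, which left 0 called members, and 2 members were called without PIF replicate 2 or PIF replicate 3, which enter through the shared spread. All 3 Met values were above all 3 TB values for 14 members, against 16.9% of all genes. The median log2 difference over the members was 0.07.

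Many members were higher in Met cells than in PIF or DIF cells. Against PIF cells, 31 members rose in Met cells and 0 fell, where 8.85% of all tested genes rose and 8.8% fell. Without adjustment, at p under 0.05, the numbers were 41 and 0, and voom gave 31 and 0. Of all 12661 tested genes, 1948 were higher and 1885 lower without adjustment. The calls covered 5 of 7 genes of Cdk1 and its partners, 2 of 3 of the Plk1, Aurka and Tpx2 group, 2 of 5 checkpoint genes, 2 of 4 genes of anaphase, 4 of 7 centromere and kinetochore genes, 7 of 8 kinesins, 6 of 7 genes of spindle binding and cytokinesis and 3 of 5 chromosome genes. For 37 members the values did not overlap, with Met above, against 16.5% of all genes. The 31 became 20 without Met replicate 2, 19 without Met replicate 3 and 19 without PIF replicate 1. Against DIF cells, 12 members rose in Met cells and 0 fell, where 2.36% of all tested genes rose and 1.5% fell. With p under 0.05 before adjustment there were 42 and 0, and voom gave 17 and 0. Of all 12661 tested genes, 1106 were higher and 1026 lower before adjustment. The 12 were Ccna2, Ccnb1, Cdc25b, Cdc25c, Cenpf, Kif4, Kif11, Kif23, Ect2, Prc1, Top2a and Foxm1. All 50 members had a positive log2 difference, with a median of 0.25, and for 45 the values did not overlap, against 12.01% of all genes. The 12 became 5 without Met replicate 1, 0 without Met replicate 2, 1 without Met replicate 3, 2 without DIF replicate 1 and 3 without DIF replicate 2.

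Few members were called between DIF and PIF cells. Cdc20, Bub1b and Kif20a rose in DIF cells over PIF cells and 0 members fell, where 9.03% of all tested genes rose and 9.85% fell. Before adjustment, 8 were higher at p under 0.05 and 0 lower, and voom called 3 and 0. Of all 12661 tested genes, 1944 were higher and 1980 lower before adjustment, so the 8 are near the share of all genes. The 3 called by limma became 6 without PIF replicate 2 and 5 without PIF replicate 3. The median log2 difference was -0.00, with 25 members negative and 25 positive, and all 3 DIF values lay above all 3 PIF values for 6 members, against 16.1% of all genes.

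**Figure D3:**
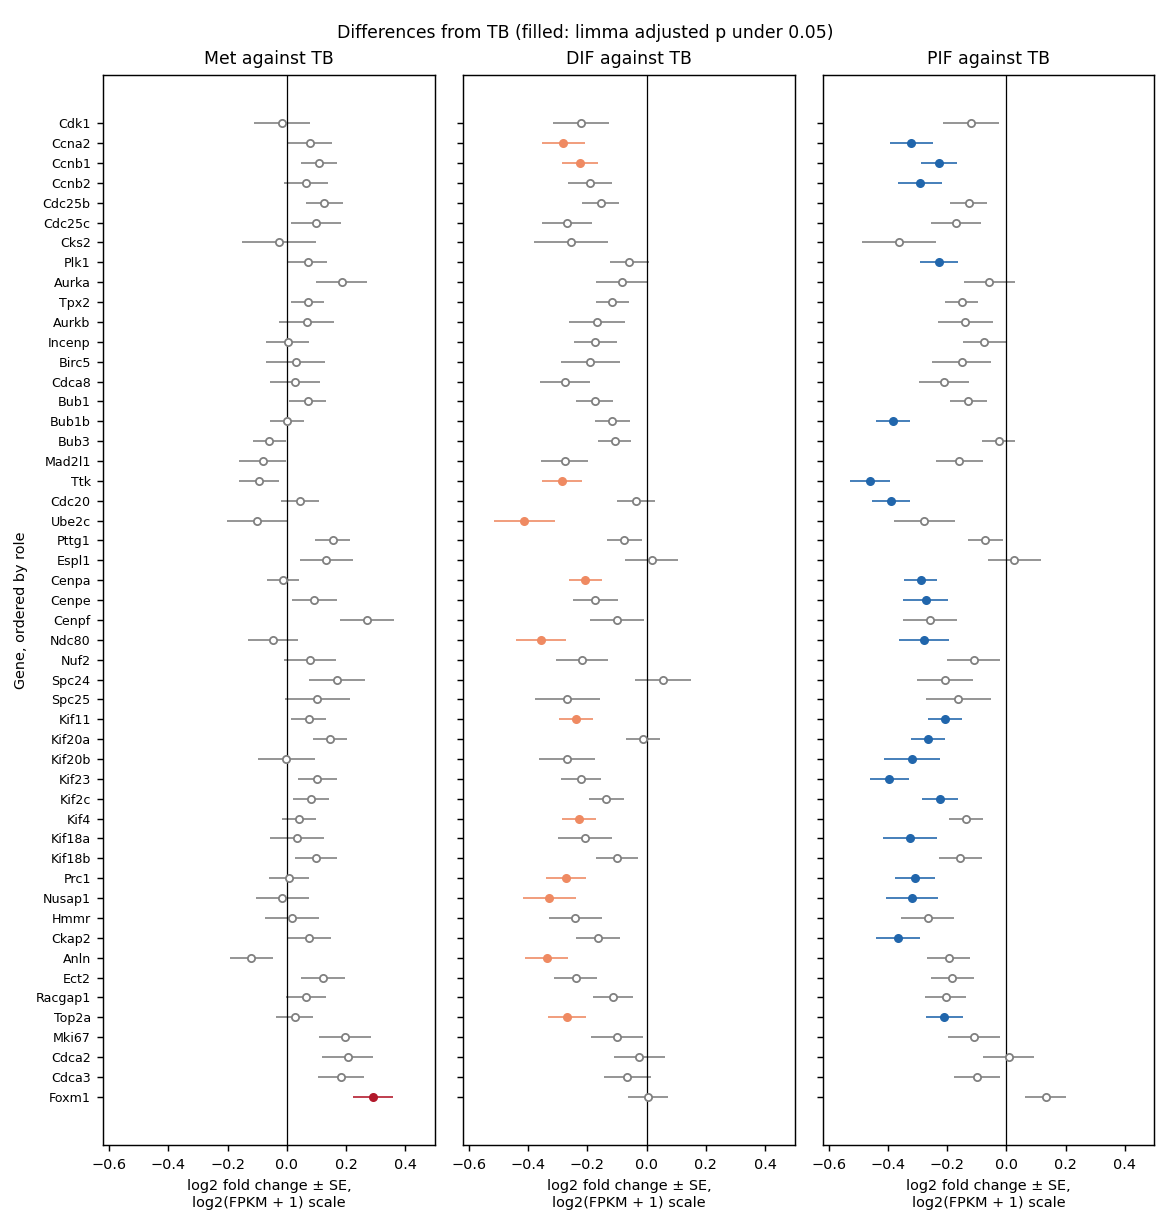
Log2 difference from TB cells, with its standard error, of each of the 50 members (rows, by role) in Met, DIF and PIF cells (panels from left to right), where filled points passed limma at an adjusted p under 0.05. Filled points number 1 in Met, 12 in DIF and 20 in PIF cells, all of them to the right of 0 in Met cells and to the left in DIF and PIF cells.

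Values in every library are given next by role, with gene coordinates as the expression table lists them without naming a genome build. Of the genes of mitotic entry, Ccnb1 (ENSMUSG00000041431, chr13:100915158-100923078), the B-type cyclin that carries Cdk1 into the nucleus, had 69.5, 71.3 and 68.6 FPKM in Met cells, 53.8, 54.5 and 57.2 in DIF cells, 50.3, 56.9 and 58.4 in PIF cells, and 62.4, 64.6 and 67.1 in TB cells. The DIF and PIF values did not reach those of TB or Met cells, and the Met values were the highest. Ccnb1 fell by 0.23 on the log2 scale in both DIF cells (SE 0.06, adjusted p = 0.0419, limma) and PIF cells (SE 0.06, adjusted p = 0.0292, limma) against TB cells, and rose by 0.33 in Met over DIF cells (SE 0.06, adjusted p = 0.0106, limma), a call lost without Met replicate 2. A processed pseudogene, Ccnb1-ps, was listed at 2.44 FPKM on average and may share reads with it. Ccna2 (ENSMUSG00000027715, chr3:36619014-36626299), a cyclin of S phase and early mitosis, had 62.1, 62.6 and 62.95 FPKM in Met cells, 43.6, 49.2 and 53.1 in DIF cells, 43.7, 47.95 and 50.1 in PIF cells, and 58.2, 61.7 and 57.8 in TB cells. Every DIF and PIF value was below every Met and TB value. Ccna2 in Met cells was 1.29 times its DIF mean, a log2 difference of 0.36 (SE 0.07, adjusted p = 0.0177, limma). That call was lost without DIF replicate 1, DIF replicate 2, Met replicate 2 or Met replicate 3, and with the spread of those 2 groups alone. Its gene overlaps Exosc9 on the other strand over 863 bases, and because the strand setting of the counting is not given, reads in that stretch cannot be assigned to either. Cdk1 itself, the kinase, averaged 55.6 ± 3.64 FPKM in Met cells, 48.2 ± 5.46 in DIF cells, 51.8 ± 5.32 in PIF cells and 56.2 ± 3.03 in TB cells (SD, n = 3 each) and passed none of the 6 comparisons. Cks2 (ENSMUSG00000062248, chr13:51799268-51804696), a small Cdk1-binding protein and the member with the highest level, had 134, 143 and 149 FPKM in Met cells, 111, 117 and 136 in DIF cells, 97.5, 141 and 102 in PIF cells, and 138, 142 and 155 in TB cells. The PIF libraries were far apart, PIF replicate 2 lay with the TB libraries, and Cks2 passed none of the 6 comparisons (adjusted p = 0.0762 for PIF against TB and 0.0876 for Met against PIF). The phosphatases Cdc25b and Cdc25c, which activate Cdk1, rose in Met cells over both DIF and PIF cells.

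The spindle checkpoint delays anaphase until the chromosomes are attached. Ttk (ENSMUSG00000038379, chr9:83716742-83754442), the kinase (Mps1) that starts the checkpoint signal, had 8.43, 8.89 and 8.84 FPKM in Met cells, 7.63, 7.61 and 7.28 in DIF cells, 5.83, 7.15 and 6.66 in PIF cells, and 9.17, 9.73 and 9.22 in TB cells. The groups formed steps, with every PIF value under every DIF value, every DIF value under every Met value and every Met value under every TB value. Ttk in PIF cells was 0.699 times its TB mean, the strongest call of a member in that pair, with a log2 difference of -0.46 (SE 0.07, adjusted p = 0.00113, limma). In DIF cells Ttk was -0.29 (SE 0.07, adjusted p = 0.0208, limma) against TB cells, and that call was lost without TB replicate 2, TB replicate 3, DIF replicate 2 or DIF replicate 3. The steps between DIF and PIF cells (adjusted p = 0.0896), Met and DIF cells (0.158) and Met and TB cells (0.436) did not pass. Bub1b (ENSMUSG00000040084, chr2:118428692-118472072), the checkpoint kinase BubR1, had 30.1, 27.5 and 26.6 FPKM in Met cells, 26.5, 25.05 and 25.8 in DIF cells, 20.8, 20.5 and 22.4 in PIF cells, and 28.3, 27.4 and 28.2 in TB cells. PIF cells were alone at the low end and DIF cells lay just under the others. Bub1b fell in PIF cells by 0.38 against TB cells (SE 0.06, adjusted p = 0.0015, limma), and was higher by 0.27 in DIF cells (SE 0.06, adjusted p = 0.007, limma) and by 0.38 in Met cells (SE 0.06, adjusted p = 0.000739, limma) than in PIF cells. The other checkpoint genes varied less: Bub3 had group means between 28.5 and 30.8 FPKM, and neither it, Bub1 nor Mad2l1 passed any of the 6 pairs, while Bub1 passed the test over the 4 groups (adjusted p = 0.0390, limma's F test).

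Cdc20 and Ube2c drive the anaphase-promoting complex, the ubiquitin ligase that destroys cyclin B and securin. Cdc20 (ENSMUSG00000006398, chr4:118290098-118294549), its activator and a target held back by the checkpoint, had 116, 114 and 123 FPKM in Met cells, 103, 116 and 116 in DIF cells, 81.9, 89.2 and 89.8 in PIF cells, and 111, 113 and 119 in TB cells. The 3 PIF values stood below the other 9, which overlapped one another. Cdc20 in PIF cells was 0.761 times its TB mean (log2 difference -0.39, SE 0.06, adjusted p = 0.00244, limma), and was higher by 0.35 in DIF cells (SE 0.06, adjusted p = 0.00222, limma) and by 0.43 in Met cells (SE 0.06, adjusted p = 0.000639, limma) than in PIF cells. DIF and TB cells did not differ detectably in Cdc20, at -0.04 (SE 0.06, adjusted p = 0.802, limma). Its gene overlaps Elovl1 on the other strand over 53 bases. Ube2c, the ubiquitin-conjugating enzyme of the complex, averaged 109 ± 6.69 FPKM in Met cells, 87.8 ± 12.5 in DIF cells, 96.3 ± 10.6 in PIF cells and 117 ± 4.82 in TB cells (SD, n = 3 each), and fell in DIF against TB cells (log2 difference -0.41, SE 0.10, adjusted p = 0.0279, limma). Pttg1 (ENSMUSG00000020415, chr11:43311077-43317078), securin, the inhibitor of separase, had 24.02, 24.6 and 25.7 FPKM in Met cells, 20.8, 20.05 and 21.95 in DIF cells, 21.9, 20.4 and 20.8 in PIF cells, and 21.3, 21.4 and 23.7 in TB cells. The Met values were the highest and the other 9 overlapped. Pttg1 rose in Met over PIF cells (log2 difference 0.23, SE 0.06, adjusted p = 0.0201, limma) and was 0.16 against TB cells, which did not pass (adjusted p = 0.128). Espl1 (ENSMUSG00000058290, chr15:102204701-102232792), separase itself, which cuts cohesin, had 8.46, 7.08 and 7.71 FPKM in Met cells, 6.56, 7.99 and 6.70 in DIF cells, 7.56, 7.53 and 6.29 in PIF cells, and 7.27, 6.75 and 6.87 in TB cells. All groups overlapped, and Espl1 had the largest p of the members in the F test (adjusted p = 0.583).

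At the centromere, Cenpf (ENSMUSG00000026605, chr1:189372803-189420283), a large kinetochore protein made in G2, had 10.7, 9.80 and 10.03 FPKM in Met cells, 7.85, 7.68 and 7.41 in DIF cells, 6.47, 5.81 and 8.11 in PIF cells, and 8.35, 7.79 and 8.64 in TB cells. The Met libraries were the highest and the PIF libraries were spread, with PIF replicate 3 among the TB values. Cenpf in Met cells was 1.495 times its PIF mean (log2 difference 0.53, SE 0.09, adjusted p = 0.00186, limma) and 1.33 times its DIF mean (log2 difference 0.37, SE 0.09, adjusted p = 0.0472, limma). Against TB cells its log2 difference of 0.27 did not pass (adjusted p = 0.0904), with all 3 Met values above all 3 TB values, and passed with voom, where the adjusted p was 0.0477 in a range of 0.0171 to 0.263 over the alternatives. Ndc80 (ENSMUSG00000024056, chr17:71803095-71833852), a subunit of the complex that binds spindle microtubules, had 12.1, 13.9 and 13.8 FPKM in Met cells, 9.71, 10.4 and 11.4 in DIF cells, 10.1, 11.8 and 11.6 in PIF cells, and 12.6, 14.2 and 14.4 in TB cells. DIF and PIF values all lay below the TB values, and Ndc80 fell in DIF cells (log2 difference -0.36, SE 0.08, adjusted p = 0.0218, limma) and in PIF cells (log2 difference -0.28, SE 0.08, adjusted p = 0.0474, limma) against TB cells. The DIF call was lost without TB replicate 2, TB replicate 3, DIF replicate 1 or DIF replicate 2. Spc24 (ENSMUSG00000074476, chr9:21666738-21671599), another subunit of that complex, had 12.5, 12.03 and 12.7 FPKM in Met cells, 10.7, 11.5 and 12.003 in DIF cells, 8.55, 10.6 and 8.96 in PIF cells, and 9.54, 10.9 and 12.5 in TB cells. The TB libraries ranged widely and overlapped those of all other groups. The difference of DIF over PIF cells, 0.26, did not pass (adjusted p = 0.0786), while that of Met over PIF cells did (log2 difference 0.38, SE 0.09, adjusted p = 0.0173, limma). The remaining subunits Nuf2 and Spc25 passed no pair. Cenpa, the centromere histone, fell in both DIF cells (log2 difference -0.21, SE 0.06, adjusted p = 0.0387, limma) and PIF cells (log2 difference -0.29, SE 0.06, adjusted p = 0.00535, limma) against TB cells.

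Kinesins, the motors of the spindle and of cytokinesis, gave more calls in PIF cells than any other role, with 6 of 8 lower than in TB cells and 2 of 8 lower in DIF cells. Kif23 (ENSMUSG00000032254, chr9:61823187-61854056), the motor of the central spindle that recruits the cytokinesis machinery, had 13.98, 13.3 and 13.2 FPKM in Met cells, 10.3, 10.1 and 11.4 in DIF cells, 8.58, 9.71 and 9.56 in PIF cells, and 12.3, 11.9 and 13.3 in TB cells. PIF was lowest, DIF next, and the Met and TB values overlapped above them. Kif23 in PIF cells was 0.741 times its TB mean (log2 difference -0.40, SE 0.07, adjusted p = 0.00257, limma), and in Met cells 1.46 times its PIF mean (log2 difference 0.50, SE 0.07, adjusted p = 0.000279, limma), the smallest p of any member in any pair. Kif20a (ENSMUSG00000003779, chr18:34757666-34766330), which carries the passenger complex to the midzone, had 32.7, 31.9 and 31.2 FPKM in Met cells, 27.7, 28.4 and 29.4 in DIF cells, 21.8, 24.8 and 24.8 in PIF cells, and 28.97, 28.2 and 29.1 in TB cells. DIF cells lay with TB cells and PIF cells below both. Kif20a fell in PIF against TB cells (log2 difference -0.26, SE 0.06, adjusted p = 0.0109, limma), rose in DIF over PIF cells (log2 difference 0.25, SE 0.06, adjusted p = 0.00937, limma), a call lost when the spread of those 2 groups alone was used, and in Met cells was 0.15 over TB cells, which did not pass (adjusted p = 0.141). Kif20a overlaps Cdc23 on the opposite strand over 2327 bases, so part of its reads may belong to Cdc23. Cdc23 also fell in PIF against TB cells (log2 difference -0.30, SE 0.06, adjusted p = 0.00435, limma). It rose in DIF over PIF cells (log2 difference 0.35, SE 0.06, adjusted p = 0.00105, limma), and the part of the overlap in the Kif20a calls was not tested. Kif11 (ENSMUSG00000012443, chr19:37364851-37410307), the motor that pushes spindle poles apart, had 23.2, 24.6 and 24.4 FPKM in Met cells, 19.1, 18.6 and 20.02 in DIF cells, 18.3, 19.8 and 20.9 in PIF cells, and 23.6, 22.5 and 22.5 in TB cells. All DIF and PIF values were below all Met and TB values. Kif11 rose in Met over DIF cells (log2 difference 0.31, SE 0.06, adjusted p = 0.0115, limma), a call lost without DIF replicate 2, Met replicate 2 or Met replicate 3. Kif18a (ENSMUSG00000027115, chr2:109111083-109172092), a motor that dampens chromosome movement and the member with the lowest level, had 3.99, 4.85 and 4.10 FPKM in Met cells, 3.65, 3.18 and 3.65 in DIF cells, 2.89, 2.96 and 3.58 in PIF cells, and 3.78, 4.40 and 4.38 in TB cells. PIF values lay below TB values, and Kif18a fell in PIF against TB cells (log2 difference -0.33, SE 0.09, adjusted p = 0.0347, limma). Kif4, a motor that binds chromatin, averaged 15.8 ± 0.164 FPKM in Met cells, 12.9 ± 0.337 in DIF cells, 13.8 ± 1.03 in PIF cells and 15.3 ± 0.435 in TB cells (SD, n = 3 each), and its gene overlaps Pdzd11 over 832 bases.

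Genes of spindle binding and cytokinesis all passed the test over the 4 groups, 7 of 7. Anln (ENSMUSG00000036777, chr9:22243308-22300484), anillin, which anchors the contractile ring, had 62.8, 70.7 and 70.7 FPKM in Met cells, 52.97, 60.1 and 62.5 in DIF cells, 62.4, 66.1 and 65.2 in PIF cells, and 77.7, 74.3 and 70.1 in TB cells. TB cells were at the top with Met cells overlapping them, PIF cells came next, and DIF cells lowest with DIF replicate 3 within the PIF range. Anln had the smallest p of the members in DIF against TB cells (log2 difference -0.34, SE 0.07, adjusted p = 0.0137, limma), and the call was lost without TB replicate 2. Ect2 (ENSMUSG00000027699, chr3:27151371-27208027), the exchange factor that activates RhoA at the division plane, had 23.5, 23.4 and 24.8 FPKM in Met cells, 17.8, 19.2 and 18.3 in DIF cells, 17.3, 18.7 and 21.8 in PIF cells, and 21.96, 21.4 and 22.3 in TB cells. Met cells were highest, and 1 PIF library, PIF replicate 3, reached the TB range. Ect2 rose in Met over DIF cells (log2 difference 0.36, SE 0.07, adjusted p = 0.0177, limma), a call lost without DIF replicate 1, DIF replicate 3, Met replicate 2 or Met replicate 3, and in Met over PIF cells (log2 difference 0.30, SE 0.07, adjusted p = 0.0131, limma). Ckap2, a spindle microtubule protein, averaged 47.2 ± 1.70 FPKM in Met cells, 39.9 ± 2.54 in DIF cells, 34.6 ± 3.23 in PIF cells and 44.8 ± 2.21 in TB cells (SD, n = 3 each), and fell in PIF against TB cells (log2 difference -0.37, SE 0.07, adjusted p = 0.00718, limma). Nusap1 and Prc1, which bundle spindle microtubules, fell in both DIF and PIF against TB cells. Nusap1 overlaps Oip5 by 172 bases, and Prc1 lies across Rccd1, which was at 0.769 FPKM.

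Among chromosome genes and their regulator, Top2a (ENSMUSG00000020914, chr11:98883769-98915015), the enzyme that untangles sister chromatids, had 82.9, 88.5 and 87.2 FPKM in Met cells, 69.01, 67.4 and 73.9 in DIF cells, 67.5, 72.6 and 79.5 in PIF cells, and 84.9, 84.2 and 84.7 in TB cells. TB libraries agreed closely, and DIF and PIF values all lay below them. Top2a fell in DIF against TB cells (log2 difference -0.27, SE 0.06, adjusted p = 0.0216, limma), a call lost without any 1 of TB replicates 1 to 3 or DIF replicates 1 and 2 and after quantile normalization. Foxm1 (ENSMUSG00000001517, chr6:128339930-128353109) had 33.5, 32.7 and 33.3 FPKM in Met cells, 25.9, 28.5 and 26.7 in DIF cells, 30.6, 30.6 and 27.8 in PIF cells, and 29.4, 27.00 and 24.6 in TB cells. Foxm1 was among the 5 members with another order of groups: the Met values were the highest, and the DIF, PIF and TB values overlapped, with the PIF mean above the DIF and TB means. It rose in Met over TB cells (log2 difference 0.29, SE 0.07, adjusted p = 0.0178, limma) and over DIF cells (log2 difference 0.29, SE 0.07, adjusted p = 0.0389, limma), whereas against TB cells it was 0.01 in DIF cells (adjusted p = 0.978) and 0.13 in PIF cells (adjusted p = 0.227). Mki67, the proliferation antigen Ki-67 that coats mitotic chromosomes, averaged 34.4 ± 2.15 FPKM in Met cells, 27.8 ± 0.785 in DIF cells, 27.8 ± 3.58 in PIF cells and 29.9 ± 2.33 in TB cells (SD, n = 3 each). It rose in Met over PIF cells (log2 difference 0.30, SE 0.09, adjusted p = 0.0325, limma) and did not pass in DIF cells (adjusted p = 0.546) or PIF cells (adjusted p = 0.455) against TB cells.

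The kinases Plk1 and Aurka with Tpx2, the spindle activator of Aurka, gave fewer calls. Plk1 averaged 68.0 ± 1.92 FPKM in Met cells, 62.1 ± 2.48 in DIF cells, 55.2 ± 3.98 in PIF cells and 64.8 ± 4.13 in TB cells (SD, n = 3 each), and fell in PIF against TB cells (log2 difference -0.23, SE 0.07, adjusted p = 0.0392, limma). Aurka passed no pair and Tpx2 only Met over PIF (log2 difference 0.22, SE 0.06, adjusted p = 0.0183, limma). In the chromosomal passenger complex, which corrects wrong attachments, Aurkb, Incenp, Birc5 (survivin) and Cdca8 (borealin) gave 0 calls of 4 in each of the 6 pairs with limma. At an unadjusted p under 0.05, 1 of the 4 was lower in PIF and 2 in DIF than in TB cells, 2 were higher in Met than in PIF cells and 4 in Met than in DIF cells, and voom called 1 gene lower in DIF than in TB cells and 1 higher in Met than in DIF cells. Of all 12661 tested genes, 1718 were lower in PIF and 1465 in DIF than in TB cells without adjustment. In Met cells, 1948 were higher than in PIF cells and 1106 than in DIF cells. Aurkb averaged 38.0 ± 1.55 FPKM in Met cells, 32.3 ± 4.11 in DIF cells, 32.9 ± 3.58 in PIF cells and 36.2 ± 1.58 in TB cells (SD, n = 3 each). Cdca8 passed the test over the 4 groups (adjusted p = 0.0377, limma's F test), and its gene overlaps 9930104L06Rik on the other strand.

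**Figure D4:**
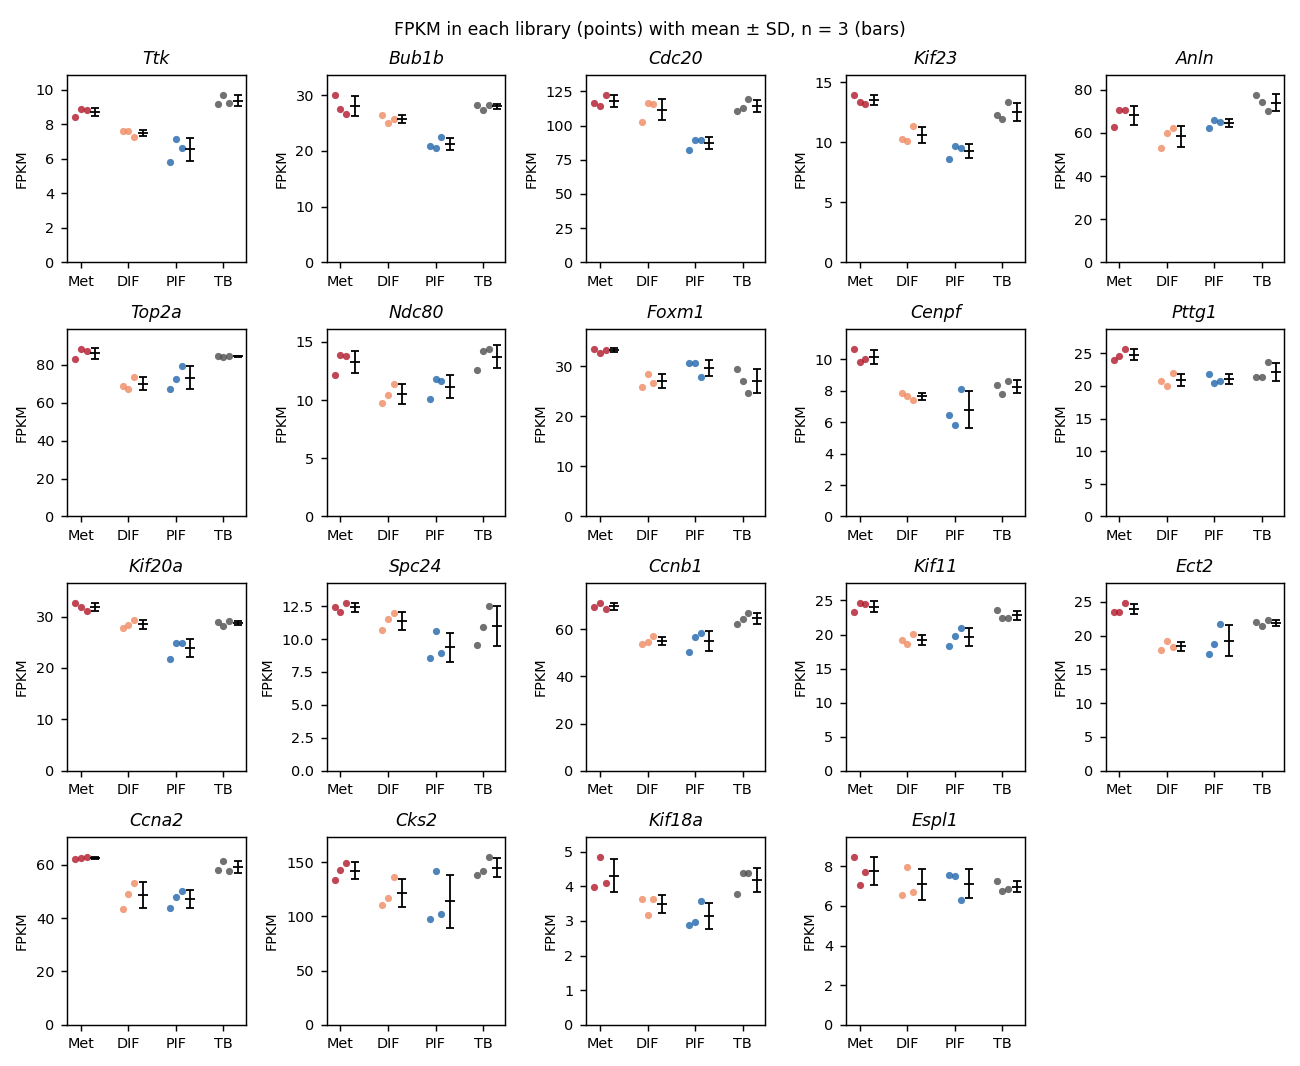
FPKM of the members named with all their values, 1 panel each, in the 3 libraries of Met, DIF, PIF and TB cells (points, left to right), with the mean and SD beside them and axes that start at 0. PIF points lie lowest for Ttk, Bub1b, Cdc20 and Kif23, and Met points highest for Foxm1 and Cenpf.

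Genes that work beside the members were read from 7 lists of 158 further genes, all of which passed the filter. Against TB cells, 18 fell and 7 rose in PIF cells, 16 fell and 2 rose in DIF cells, and 3 fell and 2 rose in Met cells. Over all tested genes 6.58% fell and 7.52% rose in PIF cells, 4.36% fell and 4.26% rose in DIF cells, and 4.63% fell and 5.32% rose in Met cells. These counts rest on single libraries. The 18 lower in PIF cells became 11, 7 and 8 without TB replicate 1, 2 or 3 in that order and 9 without PIF replicate 1, and the 7 higher became 2 without TB replicate 1 or PIF replicate 2 and 4 without TB replicate 2 or 3. In DIF cells the 16 lower became 10 without TB replicate 1, 4 without TB replicate 2 or 3, 7 without DIF replicate 1, 6 without DIF replicate 2 and 8 without Met replicate 2 or 3, and the 2 higher became 1 without TB replicate 2, Met replicate 3 or any 1 DIF library. In Met cells the 3 lower became 0 without TB replicate 3 or Met replicate 1, 1 without TB replicate 1, TB replicate 2 or Met replicate 2, and 5 without PIF replicate 2. Of the 18 that fell in PIF cells, 10 were in the list of 36 other spindle, centrosome and cytokinesis genes, whose median log2 difference was -0.15. In DIF cells 6 of 36 in that list fell, with a median of -0.18. At an unadjusted p under 0.05, 16 were lower in PIF cells and 20 in DIF cells, and voom called 11 lower in PIF cells and 7 in DIF cells. Of all 12661 tested genes, 1718 were lower in PIF cells and 1465 in DIF cells without adjustment. Cep55, which recruits the scission machinery at the end of cytokinesis, averaged 19.8 ± 0.0585 FPKM in Met cells, 16.1 ± 0.722 in DIF cells, 14.9 ± 1.25 in PIF cells and 19.99 ± 0.704 in TB cells (SD, n = 3 each) and fell in DIF (log2 difference -0.30, SE 0.06, adjusted p = 0.0129, limma) and in PIF (log2 difference -0.40, SE 0.06, adjusted p = 0.00184, limma) against TB cells. Iqgap3, a scaffold protein, fell in DIF (log2 difference -0.24, SE 0.06, adjusted p = 0.0363, limma) and PIF cells (log2 difference -0.39, SE 0.06, adjusted p = 0.00228, limma). Ckap2l, a spindle protein, also fell in DIF (log2 difference -0.29, SE 0.06, adjusted p = 0.00863, limma) and PIF cells (log2 difference -0.20, SE 0.06, adjusted p = 0.0394, limma). Haus8, a subunit of augmin, was the 1 gene of this list that fell in Met cells (log2 difference -0.24, SE 0.07, adjusted p = 0.0466, limma).

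Condensin and cohesin shape and hold the chromosomes. Of 8 condensin genes 2 fell in DIF cells and 2 in PIF cells against TB cells. Over all tested genes 4.36% fell and 4.26% rose in DIF cells, and 6.58% fell and 7.52% rose in PIF cells. At an unadjusted p under 0.05, 6 condensin genes were lower in DIF cells and 2 in PIF cells, voom called 4 and 2, and the values lay below those of TB cells without overlap for 6 and 4. Of all 12661 tested genes, 1465 were lower in DIF cells and 1718 in PIF cells without adjustment. Without overlap, 15.1% lay below TB cells in each pair. The condensin genes called by limma were Ncapg2 (log2 difference -0.31, SE 0.06, adjusted p = 0.00872, limma) and Smc2 (log2 difference -0.27, SE 0.06, adjusted p = 0.0253, limma) in DIF cells and Smc4 (log2 difference -0.31, SE 0.08, adjusted p = 0.0195, limma) and Ncaph (log2 difference -0.24, SE 0.07, adjusted p = 0.0394, limma) in PIF cells. Of 13 cohesin genes, Rad21, the subunit that separase cuts, averaged 135 ± 1.89 FPKM in Met cells, 118 ± 6.26 in DIF cells, 114 ± 4.82 in PIF cells and 135 ± 2.01 in TB cells (SD, n = 3 each) and fell in DIF (log2 difference -0.19, SE 0.05, adjusted p = 0.0496, limma) and PIF (log2 difference -0.24, SE 0.05, adjusted p = 0.0135, limma) against TB cells. Cdca5, sororin, which protects cohesin, rose in PIF cells (log2 difference 0.21, SE 0.06, adjusted p = 0.048, limma). With 1 of 13 lower and 1 of 13 higher in PIF cells, the cohesin counts were near the shares of all tested genes. Among 36 other centromere and kinetochore genes, 1 fell and 1 rose in PIF cells, Hjurp, the chaperone that loads Cenpa (log2 difference -0.18, SE 0.05, adjusted p = 0.0435, limma), and Zwint, a partner of the kinetochore (log2 difference 0.38, SE 0.10, adjusted p = 0.0239, limma). Both counts were below the shares of all tested genes. In DIF cells 2 of the 36 fell, Cenpi among them (log2 difference -0.28, SE 0.07, adjusted p = 0.0371, limma), and Mad2l2 rose (log2 difference 0.52, SE 0.09, adjusted p = 0.00292, limma). There, 33 of the 36 had a negative difference, with a median of -0.16. At an unadjusted p under 0.05, 14 were lower and 1 higher, and voom called 3 lower and 1 higher. Of all 12661 tested genes, 1465 were lower and 1443 higher in DIF cells without adjustment. Without overlap, 19 of the 36 lay below TB cells and 2 above, where 15.1% of all tested genes lay below. Mad2l2, also known as Rev7 and acting in DNA repair, rose in Met cells too (log2 difference 0.46, SE 0.09, adjusted p = 0.00495, limma), and Cenpx, of the centromere and of DNA repair, fell there (log2 difference -0.36, SE 0.09, adjusted p = 0.0266, limma). Of 17 other genes of the anaphase-promoting complex, the core subunit Cdc23 fell in PIF cells (log2 difference -0.30, SE 0.06, adjusted p = 0.00435, limma) and Anapc2 rose in DIF cells (log2 difference 0.23, SE 0.06, adjusted p = 0.0321, limma). Cdc23 is the gene that overlaps Kif20a.

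The 23 other regulators of G2 and of mitotic exit and the 25 genes of the MuvB, E2F, NF-Y and p53 group were compared next. In DIF against PIF cells 7 of the 23 fell and 1 rose, and 8 of the 25 fell and 0 rose. Over all tested genes 9.85% fell and 9.03% rose in that pair. Over all 7 lists 19 genes fell there, and 9 to 21 when 1 library was left out. Of the 23, 2 fell and 1 rose in PIF, 4 fell in DIF and 1 fell in Met against TB cells. The counts in PIF cells are near the shares of all tested genes, 6.58% lower and 7.52% higher. Over all tested genes 4.36% fell in DIF cells, and 4.63% fell and 5.32% rose in Met cells. At an unadjusted p under 0.05, 10 of the 23 were lower and 2 higher in DIF than in TB cells. Of all 12661 tested genes, 1465 were lower and 1443 higher there without adjustment. Without overlap, 13 of the 23 lay below TB cells in DIF cells and 1 above, where 15.1% of all tested genes lay below. Nek6, a kinase of spindle assembly, (log2 difference -0.57, SE 0.08, adjusted p = 0.000962, limma) fell in PIF cells, and Nek7, the relative of Nek6, (log2 difference -0.30, SE 0.07, adjusted p = 0.0184, limma) fell in DIF cells. Cdkn3, a Cdk phosphatase, fell in DIF (log2 difference -0.29, SE 0.08, adjusted p = 0.0471, limma) and PIF cells (log2 difference -0.37, SE 0.08, adjusted p = 0.0115, limma). Gadd45b, a stress-induced inhibitor of Cdk1, averaged 7.60 ± 1.27 FPKM in Met cells, 5.72 ± 0.986 in DIF cells, 15.7 ± 2.57 in PIF cells and 12.4 ± 1.21 in TB cells (SD, n = 3 each), and fell in Met (log2 difference -0.64, SE 0.14, adjusted p = 0.0136, limma) and DIF cells (log2 difference -1.001, SE 0.14, adjusted p = 0.00109, limma). Of the 25, 1 fell and 4 rose in PIF, 1 fell in DIF and 1 rose in Met against TB cells, and voom called 0 lower and 4 higher in PIF cells. Mdm2, a p53 target and the ubiquitin ligase of p53, averaged 21.98 ± 1.40 FPKM in Met cells, 20.1 ± 1.91 in DIF cells, 33.6 ± 0.791 in PIF cells and 24.7 ± 0.436 in TB cells (SD, n = 3 each), rose in PIF cells (log2 difference 0.43, SE 0.07, adjusted p = 0.00229, limma) and fell in DIF cells (log2 difference -0.29, SE 0.07, adjusted p = 0.0232, limma). E2f7, an E2F repressor, averaged 4.47 ± 0.395 FPKM in Met cells, 3.04 ± 0.187 in DIF cells, 4.55 ± 0.412 in PIF cells and 3.04 ± 0.280 in TB cells (SD, n = 3 each) and rose in Met (log2 difference 0.44, SE 0.08, adjusted p = 0.00527, limma) and PIF cells (log2 difference 0.46, SE 0.08, adjusted p = 0.00397, limma).

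The DNA replication genes, set beside the members as the other class of cell-cycle transcripts, gave other counts and medians. Of 41 such genes, 3 rose in PIF against TB cells, a count near the share of all tested genes that rose, 7.52%. The median log2 difference of the 41 was 0.09, where the mitotic members had -0.21. Ccne1, a cyclin of S phase entry, averaged 10.9 ± 0.656 FPKM in Met cells, 9.17 ± 0.984 in DIF cells, 16.5 ± 2.18 in PIF cells and 10.8 ± 0.651 in TB cells (SD, n = 3 each) and rose in PIF cells (log2 difference 0.56, SE 0.10, adjusted p = 0.003, limma), as did the licensing factor Cdt1 (log2 difference 0.51, SE 0.09, adjusted p = 0.0043, limma). In DIF against TB cells 1 fell, Ccne2 (log2 difference -0.44, SE 0.08, adjusted p = 0.00778, limma), where 4.36% of all tested genes fell. The median of the 41 was -0.14, where the members had -0.19. Of the 41, 39 had a negative difference, 15 were lower at an unadjusted p under 0.05, 17 lay below TB cells without overlap and voom called 4 lower. Of all 12661 tested genes, 1465 were lower without adjustment, and 15.1% lay below TB cells without overlap. The 1 became 5 without PIF replicate 2 and 2 without PIF replicate 3, DIF replicate 3 or Met replicate 2. In Met against TB cells the median was -0.05. There, 1 replication gene fell, Mcm3 (log2 difference -0.20, SE 0.06, adjusted p = 0.0466, limma), a subunit of the replicative helicase, where 4.63% of all tested genes fell. The number was 0 when any 1 library other than PIF replicate 2, PIF replicate 3 or DIF replicate 1 was left out. In DIF against PIF cells 14 of 41 replication genes fell, with a median of -0.23, and 3 of 50 members rose, where 9.85% of all tested genes fell and 9.03% rose. The 14 became 8 without PIF replicate 2, 7 without DIF replicate 1 and 8 without DIF replicate 2. In Met against PIF cells 7 replication genes fell, with a median of -0.14, where 8.8% of all tested genes fell, and 4 were called without PIF replicate 2 or Met replicate 1. There, 31 members rose and their median was 0.27. In Met against DIF cells 1 replication gene rose, where 2.36% of all tested genes rose. The replication genes had a median of 0.11 and the members 0.25. That 1 call was lost without TB replicate 2 or 3, PIF replicate 1, DIF replicate 1 or 2, or Met replicate 2 or 3. The difference between the classes was not tested.

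**Figure D5:**
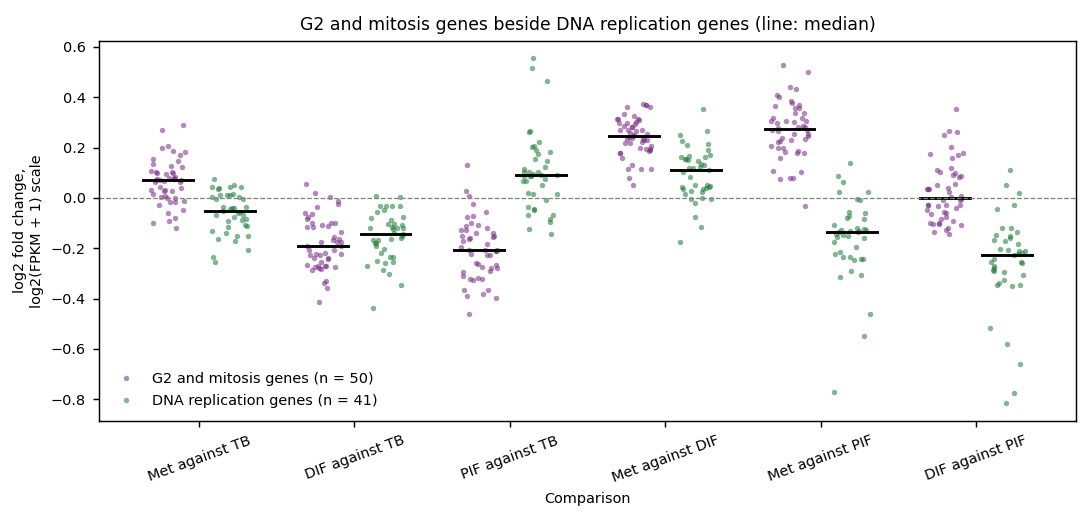
Log2 difference of each of the 50 G2 and mitosis genes and of 41 DNA replication genes (points, with a line at the median) in the 6 pairs of groups on the horizontal axis. In DIF against PIF cells the medians are -0.00 for the mitotic and -0.23 for the replication genes, and in Met against PIF cells 0.27 and -0.14.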

How the data were processed

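RNA of 12 libraries, 3 per group, was sequenced as paired Illumina reads of 150 bases, per the labels' protocols. The values in use are FPKM per gene and library as deposited by the authors. Per the submitters' processing notes, fastp, HISAT2 2.0.5 and featureCounts 1.5.0-p3 were used. No source used here names the genome build, the annotation or whether counting used strand. FPKM times gene length gave whole reads for 100% of values above 0 in every library at a tolerance of 0.001, which gave the depth and a fit with voom as an alternative. Reads per library bound counting error only.

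Genes with a mean of at least 0.5 FPKM were kept. Values of log2(FPKM + 1) went into limma 3.58.1 (R 4.3.3) with an intensity trend and 1 mean per group, the 4 groups sharing 1 spread (8 residual degrees of freedom). Tests were two-sided, with Benjamini-Hochberg adjustment over 12661 genes in each comparison. The added 1 makes differences of low genes smaller than the quotient of their means.

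Values in every sample were given for the 4 members with the smallest p in each comparison, the 2 highest and 2 lowest by mean FPKM and the member with the largest F-test p. From each related list, up to 2 called genes were named per comparison with TB, by smallest p. Other members were named with group means after their values were seen. The members and lists were chosen with earlier results of these data known. Promoters came from RefSeq windows on GRCm38.p6, and 6 were printed, those with the smallest F-test p that hold CHR letters and do not lie on chromosome 18. The alternatives were other pseudocounts, filters, scalings and spreads, voom, a replicate block and leaving out each library.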

Additional observations from a re-analysis of the deposited data

How the results depend on the processing

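The direction of the pattern held in every setting tried, but many of these settings cannot change it. Other filters, other spreads, the replicate block and the loss of a library outside a pair leave the log2 differences of that pair as they were. Over 22 settings, the original included, 46 to 48 of 50 members had a negative log2 difference in PIF and 44 to 49 in DIF against TB cells, and 49 to 50 a positive one in Met against PIF and 50 in Met against DIF cells. The median of DIF against PIF cells lay between -0.04 and 0.04. Counts of calls moved more. Leaving out 1 library gave 8 to 22 members lower in PIF and 0 to 16 lower in DIF than in TB cells, 0 to 2 higher in Met than in TB cells, 3 to 6 higher in DIF than in PIF cells, 19 to 31 higher in Met than in PIF cells, 0 to 18 higher in Met than in DIF cells, and 22 to 35 in the test over the 4 groups. Members lower in PIF than in TB cells were 13 with no filter, and 7 with the spread of the 2 groups alone, which also gave 3 higher in Met than in TB cells and 18 higher in Met than in PIF cells. Quantile normalization gave 7 members lower in DIF than in TB cells, and voom 2 higher in Met than in TB cells. No filter adds genes to the adjustment and the spread of 2 groups has fewer libraries behind it. The cause of the changed counts was not tested for any of these settings. Correlations between libraries could not settle if the replicate numbers pair the samples. Of 18 same-numbered pairs 5 correlated above 0.1, the range was -0.201 to 0.332, and 6 of 12 libraries correlated best with their own number. The highest, 0.332, was DIF replicate 1 with Met replicate 1, and PIF replicate 2 with DIF replicate 3, of unlike numbers, reached 0.315. With the replicate number as a block, 19 members were higher in Met than in DIF cells, and the other counts stayed within 1.5 times. Of single members, 466 values stayed on their side of the threshold, 33 lost and 5 gained the call, and 0 reversed. With 3 libraries per group, the smallest called differences of members from TB cells were -0.21 on the log2 scale, for Kif11 and Top2a in PIF and Cenpa in DIF cells.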
